A study of Homo sapiens with 4 samples.

Results

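As a group, the genes of human chromosome 13 expressed in cells labelled HepG2 were lower in C/EBPβ enh-/- cells than in WT cells. This held relative to the median of all genes and along nearly the whole long arm. In some stretches it rested largely on 1 C/EBPβ enh-/- library, and chromosomes 21, 17, 2 and 22 were also low. HepG2 is an established human liver cancer cell line. The series holds RNA-seq of 2 libraries of WT HepG2 cells and 2 libraries of C/EBPβ enh-/- HepG2 cells, in which CRISPR/Cas9 had removed both alleles of an enhancer downstream of CEBPB, the gene for the transcription factor C/EBPβ, on chromosome 20. All cells were grown in DMEM with fetal bovine serum, and the labels name no other difference between the genotypes. Whether the C/EBPβ enh-/- cells are 1 clone or a pool, and whether the replicates are separate cultures, is not given in the sources used here, so that p-values measure only the spread between these libraries, which may be technical.

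The members were all genes placed on chromosome 13 of GRCh37 whose FPKM (sequenced fragments, divided by transcript length and by the size of the library) averaged at least 1 over the 4 libraries. They number 212 of the 12491 genes that met this minimum in the whole genome, and of 1173 chromosome 13 genes in the files, 961 of which fell under it. The members comprise 193 protein-coding genes, 14 lncRNA genes and 5 genes of other types, between positions 20207799 and 115103101. Chromosome 13 itself was selected on measured values, because its median difference between genotypes was low in these libraries, and so the medians of the chromosome and of its windows are given as a description, with no test. Just under the minimum lay LPAR6 (mean FPKM 0.959, relative difference 0.31) and UBAC2-AS1 (0.988, −0.55), and just above it ZIC5 (1.03, −0.06) and MED4-AS1 (1.04, 0.13).

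Chromosome 13 is acrocentric: its short arm carries copies of the ribosomal RNA genes, and its protein-coding genes lie on the long arm, where gene-dense stretches alternate with long gene-poor ones. Among them are the paired type IV collagen genes COL4A1 and COL4A2, the endothelin receptor gene EDNRB, the Hippo pathway kinase gene LATS2, and the host gene of the miR-17-92 microRNA cluster, MIR17HG. The genes of one chromosome share no common function, and what they share here is position.

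To show what lies upstream of the members that passed the test described below, the 250 bases before the gene start are given for 4 of the 5, from RefSeq (promoter table on GRCh38.p14, placed on GRCh37 by an exact match). TBC1D4 is the fifth. Capitals mark matches on either strand to 3 short patterns, the C/EBP pattern TTGCNNAA, the GC box GGGCGG and the CCAAT box. The stretch of LATS2 is chr13:21635726-21635975 on the minus strand, that of KLF5 chr13:73628864-73629113 on the plus strand, that of EDNRB chr13:78493818-78494067 on the minus strand and that of GPC5 chr13:92050625-92050874 on the plus strand. The stretch of EDNRB lies inside the annotated gene, before one of its inner starts.
LATS2: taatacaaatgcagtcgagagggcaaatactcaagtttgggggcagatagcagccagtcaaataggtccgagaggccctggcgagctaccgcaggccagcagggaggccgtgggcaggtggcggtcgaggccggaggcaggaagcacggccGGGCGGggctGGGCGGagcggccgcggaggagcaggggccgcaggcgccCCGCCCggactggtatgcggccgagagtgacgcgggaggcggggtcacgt
KLF5: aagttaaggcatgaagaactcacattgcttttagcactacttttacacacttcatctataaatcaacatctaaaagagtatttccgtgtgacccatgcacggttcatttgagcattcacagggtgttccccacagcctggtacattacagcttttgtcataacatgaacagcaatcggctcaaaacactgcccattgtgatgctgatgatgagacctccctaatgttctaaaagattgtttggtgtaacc
EDNRB: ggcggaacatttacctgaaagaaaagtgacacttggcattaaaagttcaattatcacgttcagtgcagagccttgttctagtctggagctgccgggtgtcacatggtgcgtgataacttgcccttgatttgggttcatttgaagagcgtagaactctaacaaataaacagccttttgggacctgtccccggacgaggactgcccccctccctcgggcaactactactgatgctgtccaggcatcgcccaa
GPC5: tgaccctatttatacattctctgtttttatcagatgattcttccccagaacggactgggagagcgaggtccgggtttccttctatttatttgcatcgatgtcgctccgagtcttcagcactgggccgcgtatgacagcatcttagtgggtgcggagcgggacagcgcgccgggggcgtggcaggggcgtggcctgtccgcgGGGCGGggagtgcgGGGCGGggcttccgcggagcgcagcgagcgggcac
LATS2 held 3 GC boxes and GPC5 held 2, and none of the 3 patterns matched in the other two. Their GC content was 69.6% (LATS2), 40.8% (KLF5), 50% (EDNRB) and 62.4% (GPC5). Among the 180 members with an entry, the C/EBP pattern occurred in 4.44% of upstream stretches, the GC box in 60% and the CCAAT box in 34.4%. Among the 9462 genes with an entry that reached the minimum genome-wide, the shares were 5.79%, 68.5% and 35.9%, and among all 27305 entries 9.13%, 42.3% and 33%. The 8 members with the C/EBP pattern had a median relative difference of −0.51, and the 172 without it −0.38. For the GC box the medians were −0.41 (108 members with it) and −0.29 (72 without). For the CCAAT box they were −0.41 (62 with it) and −0.37 (118 without). The members with a pattern were thus slightly lower for each of the 3 patterns, and no split was tested. A match is a run of letters, not a site of binding.

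The libraries differed in ways that touch these values. FPKM totals lay between 484073 and 614111, and the 5 highest genes held 18.8% to 22.3% of the total in WT and 27.4% to 35.1% in C/EBPβ enh-/- cells. From the spacing of FPKM values under 0.3, depth relative to WT replicate 1 was about 1.13 in WT replicate 2, 0.545 in C/EBPβ enh-/- replicate 1 and 1.21 in C/EBPβ enh-/- replicate 2. Hepatocyte markers were nearly absent in the cells labelled HepG2: 20 of 23 (ALB, AFP, APOA1 and others) stayed under an FPKM of 1 in all 4 libraries, the summed level of the list being 3.49 to 4.12 in WT and 4.81 to 5.38 in C/EBPβ enh-/- cells. The sum of 5 epithelial markers was 648 to 797 in WT and 238 in both C/EBPβ enh-/- libraries, nearly all from KRT8 and KRT18, with EPCAM and CDH1 at or near 0. That of 6 mesenchymal markers was 285 to 357 in WT and 211 to 247 in C/EBPβ enh-/- cells, a lower sum carried by VIM. COL3A1 went the other way, with 33.3 and 31.9 in WT and 45.8 and 55.7 in C/EBPβ enh-/- cells. All 3 endothelial and all 4 haematopoietic markers were under 1. The part of these differences in the results below was not tested. CEBPB had an FPKM of 30.6 and 19.2 in WT and of 12.4 and 11.8 in C/EBPβ enh-/- cells. It was lower in both, as the labels would have it, but did not pass the threshold (limma, adjusted p = 0.125).

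For each gene the difference was taken between the means of log2(FPKM + 1), C/EBPβ enh-/- minus WT. The median of all 12491 genes was itself −0.14, and differences called relative below are given after this value was subtracted. The members had a median difference of −0.50, which is −0.36 relative to all genes, a factor of 0.778 on the FPKM + 1 scale beside the change of all genes. The median ratio of mean FPKM, C/EBPβ enh-/- over WT, was 0.673 for the members and 0.893 for all genes with a WT value. The middle 50% of members lay between −0.64 and −0.10, against −0.33 to 0.30 for all genes, so the whole distribution was displaced and not only its tail. In all, 175 of 212 members (82.5%) lay below the median of all genes. A relative fall of at least 1 was seen in 20 members (9.43%, against 4.40% of all genes), and a rise of that size in no member (2.32% of all genes).

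**Figure D1:**
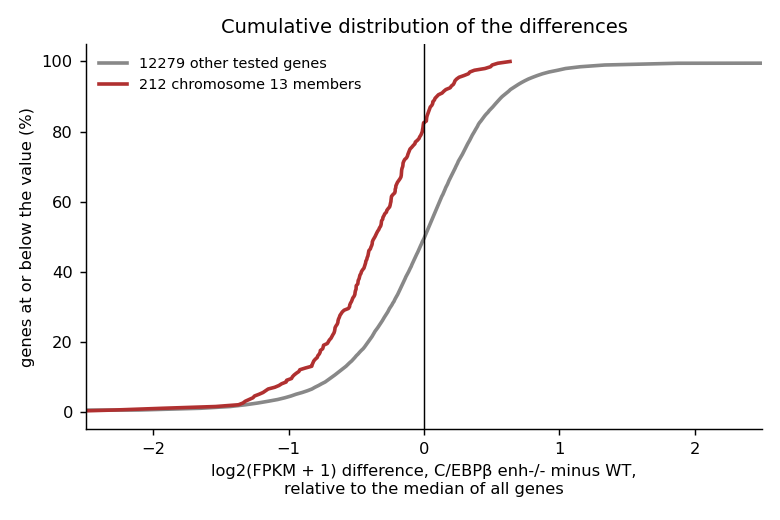
Cumulative share of genes (vertical axis, %) at or below each log2(FPKM + 1) difference between genotypes, relative to the median of all genes (horizontal axis), for the 212 chromosome 13 members in red and the other 12279 genes in grey. The red curve runs to the left of the grey one, reaching 82.5% at 0, and ends at 0.64.

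Each of the 4 pairs of a C/EBPβ enh-/- and a WT library gave a lower median for the members than for all genes. It was −0.41 for C/EBPβ enh-/- replicate 1 minus WT replicate 1, −0.35 for C/EBPβ enh-/- replicate 1 minus WT replicate 2, −0.35 for C/EBPβ enh-/- replicate 2 minus WT replicate 1 and −0.28 for C/EBPβ enh-/- replicate 2 minus WT replicate 2. Within a genotype, the median was −0.05 for WT replicate 2 minus WT replicate 1 and 0.05 for C/EBPβ enh-/- replicate 2 minus replicate 1. The medians between genotypes were those the chromosome was selected on, so nothing is read from their size beside these. Across the 212 members, Pearson's r between the differences of the 2 same-numbered pairs, which share no library, was 0.32, against 0.46 over all genes. With the pairs crossed it was 0.09 and 0.45. Genes are not independent replicates, and no p is attached.

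Taken as a sum, the members held 1.04% and 0.986% of all FPKM in WT cells, but 0.533% and 0.707% in C/EBPβ enh-/- cells. Without RPL21, TPT1 and HMGB1, the 3 most abundant members, the shares were 0.750% and 0.662% against 0.391% and 0.527%. Both shares were lower in both C/EBPβ enh-/- libraries. These shares also move with the larger part that the 5 highest genes took in those libraries.

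Among chromosomes with at least 100 genes over the minimum, chromosome 13 had the lowest median. Chromosome 21 followed at −0.34 (122 genes, −0.44 to −0.20 over the 4 pairs of libraries) and chromosome 17 at −0.34 (721 genes, −0.35 to −0.29). The range over pairs for chromosome 13, −0.41 to −0.28, overlapped both, as well as those of chromosome 2 (median −0.30, −0.32 to −0.25 over pairs) and chromosome 22 (−0.27, −0.38 to −0.19), so that its place below these 4 is not beyond the spread. The highest median was that of chromosome 8, 0.35 (422 genes), whose range of 0.29 to 0.44 was far from that of chromosome 13.

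**Figure D2:**
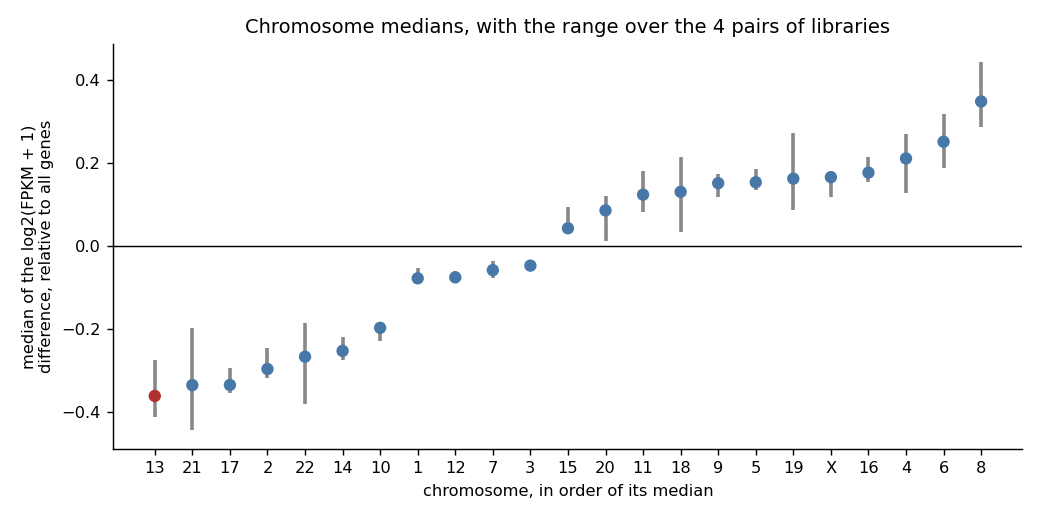
Median log2(FPKM + 1) difference between genotypes relative to all genes (points) for each chromosome with at least 100 genes over the minimum, in order of the median, with bars from the lowest to the highest of the 4 pairs of libraries. Chromosome 13, in red, is at −0.36 with a bar that overlaps those of chromosomes 21, 17, 2 and 22.

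Genes of chromosome 13 differ from the genome at large in composition: their median transcript GC content was 41.8%, against 47.5% for all genes tested, their median transcript length 4574 against 3680 nt and their median FPKM 6.88 against 9.47. The lower level was seen in every stratum of these properties. The strata divide the same members whose low median the chromosome was selected on, and the part of composition in the difference was not tested. By mean FPKM, the members' median was below that of the other genes of the stratum by 0.33 from 1 to 3 (54 members), by 0.41 from 3 to 10 (70 members), by 0.36 from 10 to 30 (58 members) and by 0.39 above 30 (30 members). Over 4 strata of GC content, the members' median minus that of the other genes ranged from −0.43 to −0.37, and over 4 strata of transcript length from −0.42 to −0.25. Protein-coding members had a median relative difference of −0.38. The 14 lncRNA members had a median of 0.05, and 6 of 14 were below the median of all genes, a difference that was not tested. Of the members, 54 overlap another member, and reads of such pairs may be shared. The other 158 had a median of −0.41.

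Limma compared the genotypes gene by gene over all 12491 genes, on differences not made relative. Of the members, 5 had a lower value in C/EBPβ enh-/- cells at a Benjamini-Hochberg adjusted p under 0.05 and 0 a higher one, against 1.21% lower and 0.248% higher of all genes tested. At an unadjusted p under 0.05, 82 members were lower and 0 higher, against 16.9% and 3.86% of all genes. The values of the genotypes did not overlap in 143 members that were lower in C/EBPβ enh-/- cells (67.5%, against 37.5% of all genes) and in 5 that were higher (2.36%, against 15.1%). The rule used these same libraries, so nothing is read from these counts about the chromosome. The number of members called lower was 0 or 1 when any 1 of the 4 libraries was left out, 1 when each library was centred on its median or rescaled to the same total, and 16 among protein-coding genes alone.

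The largest fall among the 5 was that of GPC5 (ENSG00000179399.9, chr13:92050875-93525935, plus strand), which encodes glypican 5, a heparan sulfate proteoglycan of the cell surface. Its FPKM was 6.42 and 5.65 in WT and 0.241 and 0.339 in C/EBPβ enh-/- cells. Both WT values were far above both C/EBPβ enh-/- values, and the log2 difference was −2.45 ± 0.25 (SE, adjusted p = 0.0122 from limma). Both C/EBPβ enh-/- values were under 1, so GPC5 met the minimum only through its WT values. Without the minimum its adjusted p from limma was 0.228. MIR17HG, which ends shortly before GPC5 on the same strand, had 4.97 and 5.85 in WT and 2.18 and 5.12 in C/EBPβ enh-/- cells, so that only C/EBPβ enh-/- replicate 1 stood clearly lower.

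EDNRB (ENSG00000136160.10, chr13:78469616-78549664, minus strand) encodes the endothelin B receptor, a G protein-coupled receptor. It was measured at 7.72 and 5.85 in WT and at 0.386 and 1.30 in C/EBPβ enh-/- cells. Both C/EBPβ enh-/- values were well under the lower WT value, with a log2 difference of −2.11 ± 0.32 (SE, adjusted p = 0.0334 from limma). Its mean in C/EBPβ enh-/- cells was 0.842, so EDNRB met the minimum of 1 only through its WT values. Without the minimum its adjusted p from limma was 0.275.

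LATS2 (ENSG00000150457.7, chr13:21547175-21635725, minus strand), a kinase of the Hippo pathway, was at 8.61 and 9.75 in WT and at 2.35 and 2.76 in C/EBPβ enh-/- cells. The replicates of each genotype lay close together, and the log2 difference was −1.52 ± 0.23 (SE, adjusted p = 0.0325 from limma).

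KLF5 (ENSG00000102554.9, chr13:73629114-73651679, plus strand) encodes a Krüppel-like transcription factor of proliferating epithelia. Its FPKM was 11.8 and 12.0 in WT and 3.89 and 4.33 in C/EBPβ enh-/- cells, a log2 difference of −1.33 ± 0.21 (SE, adjusted p = 0.0399 from limma). TBC1D4 (ENSG00000136111.8, chr13:75857639-76056305, minus strand) encodes a Rab GTPase-activating protein, also called AS160, that acts on the traffic of glucose transporters in response to insulin. It had 16.99 and 14.3 in WT and 5.60 and 5.86 in C/EBPβ enh-/- cells, a log2 difference of −1.30 ± 0.22 (SE, adjusted p = 0.0447 from limma). In both genes the spread between replicates was small beside the distance between genotypes. KLF5, TBC1D4 and EDNRB lie within the same 10 Mb window.

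Among members with a mean FPKM of at least 5 and no overlap between genotypes, the 5 largest relative falls were those of SNORA31, LATS2, MCF2L, ABCC4 and KLF5. ABCC4, a transporter that exports cyclic nucleotides and drugs, had 44.3 and 29.3 in WT and 8.77 and 19.3 in C/EBPβ enh-/- cells (relative difference −1.26, limma adjusted p = 0.117). MCF2L had 11.2 and 6.30 in WT and 3.52 and 1.58 in C/EBPβ enh-/- cells (relative difference −1.33, limma adjusted p = 0.0995). The replicates of ABCC4 and MCF2L were wide apart, and neither passed the threshold. SNORA31, a small nucleolar RNA inside TPT1 on the same strand, was at 20.1 and 32.8 in WT, listed at 0 in C/EBPβ enh-/- replicate 1 and at 12.0 in replicate 2, and its reads may be shared with TPT1. No member with a mean FPKM of at least 5 was higher in both C/EBPβ enh-/- libraries than in both WT libraries. The 5 members that were (B3GLCT, RCBTB2, WDFY2, RBM26-AS1 and GPR183) have lower levels. B3GLCT, a glucosyltransferase of thrombospondin repeats, had 2.71 and 3.84 in WT and 4.83 and 4.11 in C/EBPβ enh-/- cells (limma adjusted p = 0.450), and the other 4 adjusted p-values were 0.457 or more.

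**Figure D3:**
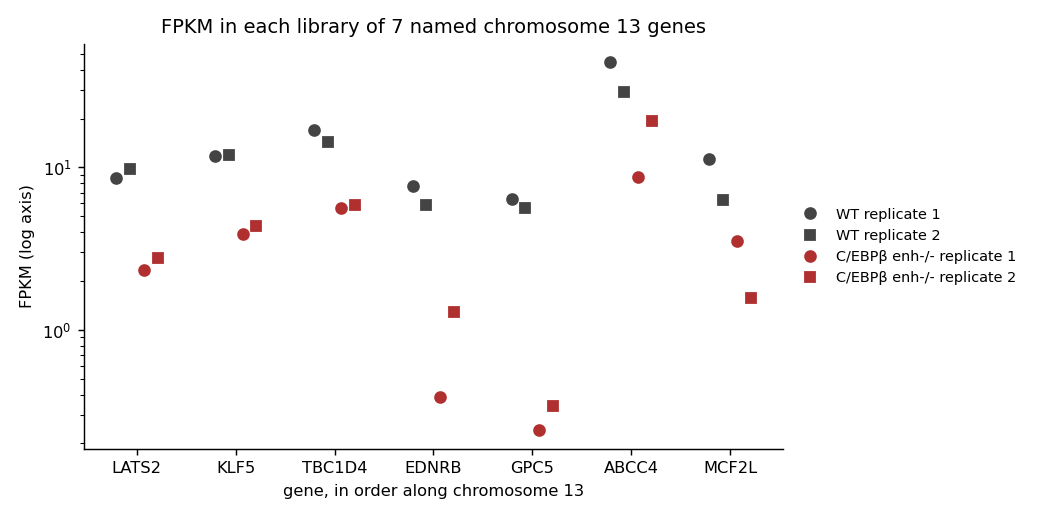
FPKM (log axis) in each WT library (grey) and C/EBPβ enh-/- library (red) of the 5 genes past the threshold and of ABCC4 and MCF2L, in order along chromosome 13. Every red symbol lies below both grey symbols of its gene, with the widest gap in GPC5.

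To see how the difference ran along the chromosome, members were placed by their midpoint in windows of 10 Mb counted from the first base. The 10 windows that hold members are numbered from the centromere. Of these, 8 hold 5 or more members, and all 8 had a median below that of all genes, from −0.46 to −0.17. The windows from 60 to 70 Mb and from 80 to 90 Mb hold 2 and 3 members, with relative differences between −0.96 and 0.11. On the other chromosomes, 132 of 289 such windows (45.7%) had a median below that of all genes, and 21.1% were at or below −0.17. Chromosome 13 was selected for its low median, which favours low windows, so nothing is read from this comparison. In 7 of the 8 windows all 4 pairs of libraries gave a median below all genes. The exception was the window from 100 to 110 Mb, where 1 pair gave 0.06. Without the minimum on FPKM, when 552 chromosome 13 genes enter and most of them have a mean FPKM under 1, the median of the chromosome was −0.040 and that of the window from 90 to 100 Mb 0.00117.

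**Figure D4:**
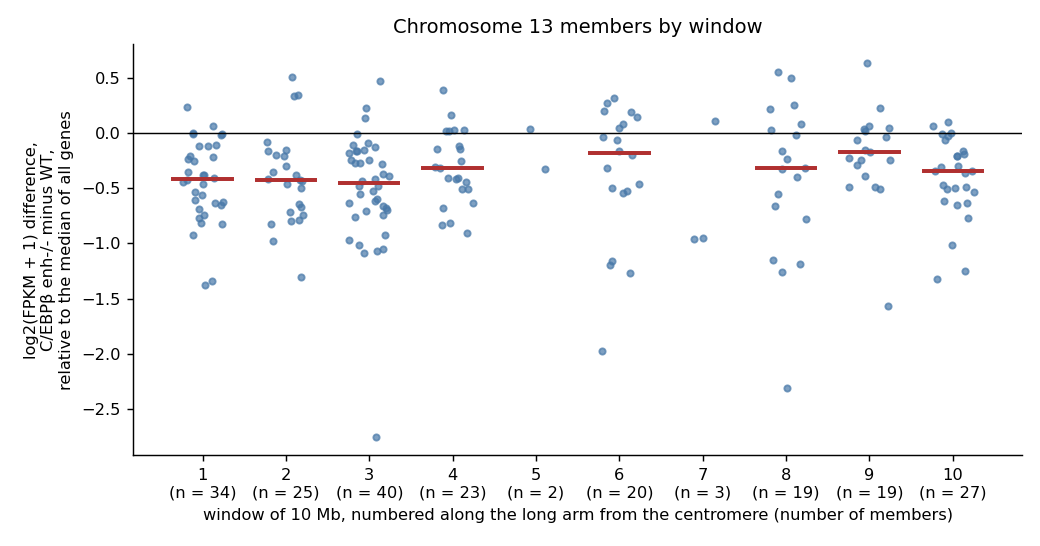
Relative log2(FPKM + 1) difference between genotypes of each member (points) in the 10 windows of 10 Mb, numbered from the centromere, with the window median as a red bar where it holds 5 or more members. The bars lie below 0 in all 8 such windows, and some members in each of them lie above 0.

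The first window, from 20 to 30 Mb, holds 34 members, with a median of −0.42 (middle 50% from −0.65 to −0.14, and −0.46 to −0.34 over the 4 pairs), and 32 of 34 were below all genes. Its most abundant member, RPL21, a ribosomal protein gene with many processed copies in the genome among which reads can be split, had 715 and 761 in WT and 358 and 398 in C/EBPβ enh-/- cells. Both C/EBPβ enh-/- values were near 0.5 of the WT values, at an adjusted p of 0.0710 from limma. SAP18, part of a histone deacetylase complex, was the member nearest the window median among those whose mean FPKM reached 5, a limit that holds for the gene nearest the median in each window below, with 54.0 and 43.5 in WT and 39.6 and 26.0 in C/EBPβ enh-/- cells.

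In the second window, from 30 to 40 Mb, the 25 members had a median of −0.43 (middle 50% from −0.71 to −0.20, and −0.59 to −0.38 over pairs), and 22 were below all genes. HMGB1, an abundant chromatin protein, had 342 and 411 in WT and 280 and 217 in C/EBPβ enh-/- cells. Nearest the median above this limit was PDS5B, a regulator of cohesin, with 8.80 and 8.51 in WT and 5.45 and 5.56 in C/EBPβ enh-/- cells. The replicates of PDS5B lay within a few percent of each other, while its genotypes did not overlap.

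The third window, from 40 to 50 Mb, had a median of −0.46 over 40 members (middle 50% from −0.70 to −0.18, and −0.54 to −0.35 over pairs). In it 37 members were below all genes, and 32 had both C/EBPβ enh-/- values below both WT values. TPT1, the translationally controlled tumour protein, had 526 and 571 in WT and 233 and 259 in C/EBPβ enh-/- cells, a log2 difference of −1.16 ± 0.20 (SE, adjusted p = 0.0527 from limma), just short of the threshold. SUCLA2, a subunit of succinyl-CoA synthetase in mitochondria, had 44.5 and 38.2 in WT and 29.5 and 25.4 in C/EBPβ enh-/- cells, near the median of the window. The longest unbroken run of neighbouring members below all genes, 30 genes from EXOSC8 to TPT1, spans the second and the third window.

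From 50 to 60 Mb, 17 of 23 members were below all genes and the median was −0.32 (middle 50% from −0.51 to −0.05, and −0.38 to −0.12 over pairs). It was −0.20 without C/EBPβ enh-/- replicate 1. SUGT1, a co-chaperone of HSP90, had 33.7 and 34.03 in WT and 15.4 and 16.5 in C/EBPβ enh-/- cells (limma adjusted p = 0.0676). DLEU1, a lncRNA gene in the region often deleted in B-cell leukaemia, was close to the window median with 14.9 and 17.1 in WT and 10.6 and 12.1 in C/EBPβ enh-/- cells.

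The window from 70 to 80 Mb was split. Its median was −0.18 (20 members, middle 50% from −0.53 to 0.10, and −0.29 to −0.13 over pairs), with 13 members below all genes, yet it holds 3 of the 5 genes past the threshold and its members spread by 0.62 (SD over genes), against 0.37 in the first window. LMO7, an adaptor of cell junctions, was both the most abundant member and, above this limit, the one nearest the median, with 60.4 and 61.8 in WT and 42.3 and 54.8 in C/EBPβ enh-/- cells.

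From 90 to 100 Mb, 19 members had a median of −0.32 (middle 50% from −0.72 to 0.05, and −0.36 to −0.17 over pairs), which was −0.10 without C/EBPβ enh-/- replicate 1. Beside GPC5 and ABCC4, IPO5, an importin, had 121 and 108 in WT and 62.2 and 68.4 in C/EBPβ enh-/- cells. GPR180, a membrane protein near the window median, had 5.04 and 8.28 in WT and 3.64 and 5.40 in C/EBPβ enh-/- cells, and its genotypes overlapped. The SD over the genes of this window was 0.70.

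The window from 100 to 110 Mb had a median of −0.17 (19 members, middle 50% from −0.34 to 0.03, and −0.38 to 0.06 over pairs). It rested on C/EBPβ enh-/- replicate 1, since its median was −0.03 without that library and −0.34 without replicate 2. TM9SF2, a Golgi and endosome membrane protein, had 58.5 and 51.3 in WT and 42.1 and 46.9 in C/EBPβ enh-/- cells. POGLUT2, a glucosyltransferase of the endoplasmic reticulum, had 9.50 and 13.9 in WT and 9.62 and 8.54 in C/EBPβ enh-/- cells, which overlapped. Against this background CLYBL, a mitochondrial enzyme and the largest fall of the window, had 5.01 and 4.02 in WT and 0.252 and 1.25 in C/EBPβ enh-/- cells (limma adjusted p = 0.0678, a gene chosen after its values were seen).

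At the end of the long arm, from 110 to 120 Mb, 25 of 27 members were below all genes and the median was −0.35 (middle 50% from −0.57 to −0.18, and −0.62 to −0.19 over pairs). It was −0.22 without C/EBPβ enh-/- replicate 1 and −0.57 without replicate 2. CUL4A, the scaffold of a ubiquitin ligase, had 201.3 and 99.1 in WT and 120 and 156 in C/EBPβ enh-/- cells, so its WT replicates lay further apart than the genotypes. UPF3A, a factor of nonsense-mediated decay, was near the median with 17.1 and 15.1 in WT and 11.4 and 11.1 in C/EBPβ enh-/- cells.

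In order from the lowest, the medians ran from the third window through the second, the first, the last, and those from 90, from 50, from 70 and from 100 Mb. Neighbours in this order had overlapping ranges over the 4 pairs of libraries, and the order changed with the processing. The lowest window was that from 30 to 40 Mb with a pseudocount of 0.1 (−0.58, against −0.47 from 40 to 50 Mb), that from 50 to 60 Mb without a minimum on FPKM (−0.17), and that from 110 to 120 Mb without C/EBPβ enh-/- replicate 2 (−0.57). Without C/EBPβ enh-/- replicate 1 or without WT replicate 1 it was that from 30 to 40 Mb (−0.48 and −0.47). When a mean FPKM of 5 was required, the window from 50 to 60 Mb (−0.48) was below the first and the second. The ranges of the 3 windows nearest the centromere did not overlap that of the window from 70 to 80 Mb. The 4 pairs share libraries, and they are not 4 independent comparisons. Within genotypes, the window medians went from −0.17 to 0.02 for WT replicate 2 minus WT replicate 1. They went from −0.11 to 0.25 for C/EBPβ enh-/- replicate 2 minus replicate 1, the 3 windows beyond 90 Mb being the highest at 0.20 to 0.25. Toward the end of the arm the 2 C/EBPβ enh-/- libraries thus differed by an amount of the same order as the genotypes. Between neighbouring members along the chromosome, Pearson's r of the relative difference was 0.10 over 211 pairs of neighbours, given as a description of genes that share libraries.

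**Figure D5:**
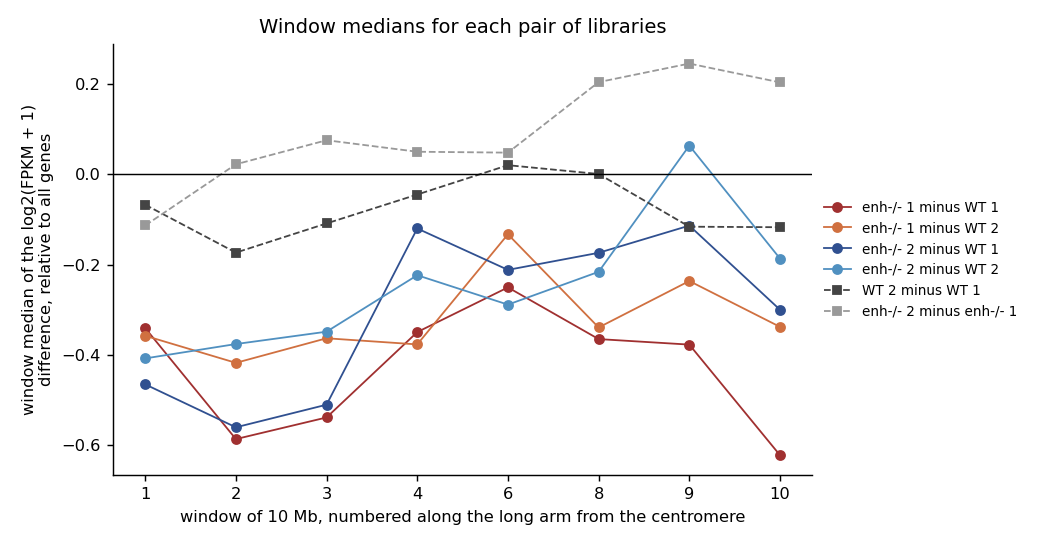
Median relative log2(FPKM + 1) difference of the members in each window with 5 or more members, for the 4 pairs of a C/EBPβ enh-/- minus a WT library (circles, solid) and for the pairs within a genotype (squares, dashed). The circles lie below 0 except 1 in window 9, and the squares for C/EBPβ enh-/- replicate 2 minus replicate 1 reach 0.25 there.

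Grouped by function, in lists that overlap in a few genes and were drawn up with earlier results of these data known, the medians of all 8 lists were below that of all genes, a direction that the choice of the chromosome favours. For comparison, the median of all genes is 0 on the relative scale, and 37.5% of all genes had both C/EBPβ enh-/- values below both WT values. In bulk RNA, fewer cells of a type and less RNA per cell cannot be told apart.

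The list of mitochondrial, translation and metabolic genes has 30 members of 34 genes in the files, with a median of −0.39. Of these, 24 had both C/EBPβ enh-/- values below both WT values, and 0 passed the threshold. Beside RPL21 and TPT1, ESD, an S-formylglutathione hydrolase, had 55.5 and 53.8 in WT and 18.4 and 28.0 in C/EBPβ enh-/- cells (limma adjusted p = 0.0731).

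The list of transcription factors and cofactors has 21 members of 27, with a median of −0.50, and 16 of them had both values below WT. KLF5 passed the threshold. TSC22D1, a leucine zipper protein induced by TGF-β, had 277 and 133 in WT and 65.3 and 104 in C/EBPβ enh-/- cells. GTF3A, the 5S rRNA gene factor TFIIIA, had 77.0 and 71.1 in WT and 32.3 and 37.7 in C/EBPβ enh-/- cells, and TFDP1, the dimer partner of E2F factors, 49.6 and 64.8 in WT and 29.7 and 37.3 in C/EBPβ enh-/- cells. None of these 3 passed.

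Of the cell cycle and DNA repair list, 25 members of 27 had a median of −0.33, and 17 had both values below WT, with 0 past the threshold. Its most abundant members were HMGB1, CUL4A and TFDP1, given above and in the list of factors. RFC3, a subunit of the clamp loader of DNA replication, had 22.9 and 29.5 in WT and 23.1 and 19.1 in C/EBPβ enh-/- cells. The ubiquitin and protein turnover list, with all 26 of its genes as members, had a median of −0.26, with 22 below all genes, 17 below WT in both values and 0 past the threshold. PCID2, a nuclear export factor of the same region as CUL4A, had 141 and 73.5 in WT and 45.5 and 93.0 in C/EBPβ enh-/- cells. Its WT replicates lay about as far apart as those of CUL4A, its neighbour, whose annotated span it overlaps on the other strand.

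The signalling list, named for growth factors, receptors and kinases, also takes in genes of other functions, MBNL2 and LAMP1 among them. It has 17 members of 31, with a median of −0.37, and 13 had both values below WT. It holds EDNRB and LATS2. MBNL2, a splicing regulator, had 40.4 and 36.5 in WT and 12.9 and 17.8 in C/EBPβ enh-/- cells (limma adjusted p = 0.0581). LAMP1, a lysosomal membrane protein, had 126 and 133 in WT and 97.6 and 84.5 in C/EBPβ enh-/- cells. STK24, a kinase of the STE20 family, had 52.4 and 40.2 in WT and 34.1 and 31.8 in C/EBPβ enh-/- cells. The 3 genes were lower in each C/EBPβ enh-/- library than in both WT libraries, and none passed the threshold. FLT1 and FLT3, receptor kinases of vessels and blood cells, were at or near 0 in every library.

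The extracellular matrix and adhesion list has 8 members of 18, all below all genes, at a median of −0.43, and 5 had both values below WT. The head-to-head neighbours COL4A2 and COL4A1, whose annotated spans overlap and which encode chains of basement membrane collagen, moved alike over the libraries. COL4A2 had 56.2 and 69.9 in WT and 29.2 and 56.3 in C/EBPβ enh-/- cells, and COL4A1 had 24.3 and 32.2 in WT and 10.6 and 27.2 in C/EBPβ enh-/- cells. In both genes C/EBPβ enh-/- replicate 2 reached or passed the lower WT value, while replicate 1 stood lower.

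Of the liver and coagulation list, which also takes in genes of other functions, only 7 of 17 genes were members, at a median of −0.51. Of these, 6 had both values below WT. Past the threshold was only GPC5, the cell surface proteoglycan described above. The coagulation factor genes F7 and F10 reached at most 0.0732 and 0.153 in any library. PCCA, a subunit of propionyl-CoA carboxylase, had 8.25 and 8.51 in WT and 5.69 and 4.35 in C/EBPβ enh-/- cells, and SLC25A15, the mitochondrial ornithine transporter, had 11.9 and 13.3 in WT and 7.21 and 9.41 in C/EBPβ enh-/- cells. The list of non-coding RNA genes has 5 members of 12, with a median of −0.40, and 2 of the 5 had both values below WT, a share near that of all genes. It leaves out many of the 14 lncRNA members, whose median as a class was 0.05, with 6 of 14 below all genes. The median of the list therefore does not stand for the non-coding members. Among them SNORA27, a small nucleolar RNA inside RPL21, had 58.7 and 5.26 in WT and 47.02 in C/EBPβ enh-/- replicate 1, and was listed at 0 in replicate 2.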

How the data were processed

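RNA-seq of 4 libraries labelled HepG2 was used, 2 WT and 2 C/EBPβ enh-/-, grouped by the labels. The authors deposited 1 FPKM value per gene and library. The submitters' processing notes name hg19, TopHat2 2.0.13 and Cufflinks without saying what each did, and the labels' extraction text describes ChIP. How libraries were scaled to each other is not given in the sources used here. FPKM depends on the other genes of a library, so a few abundant genes can shift all values, which is why differences are given relative to all genes. Of 57815 entries, 47 pseudoautosomal copies were dropped. Of the other 57768, 55535 identifiers matched GENCODE release 44 lifted to GRCh37, which gave positions, symbols, lengths and GC content, and 293 of the 12491 genes tested have no position.

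Values were taken as log2(FPKM + 1), with a minimum mean FPKM of 1, and compared with limma 3.58.1 (R 4.3.3, mean-variance trend, no block, two-sided, Benjamini-Hochberg adjustment, threshold 0.05). The fit was checked on simulated data. An exact permutation test of 2 libraries against 2 cannot go below 0.333. Read counts were not used, and depth is known only as a ratio between libraries. Tables were made with Python and pandas.

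The members, windows and lists were chosen with earlier results of these data known. Named are members past the threshold, the 5 largest falls and rises among members with a mean FPKM of at least 5 and no overlap between genotypes, in each window of 10 Mb with 5 or more members the most abundant member and, among those with a mean FPKM of 5 or more, the one nearest the median, list members, and those at the minimum. Alternatives were another pseudocount, other filters, rescaling, centring, a correction for GC content and length by loess, the replicate block, no trend, other windows, means, and leaving out each library.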

Additional observations from a re-analysis of the deposited data

How the results depend on the processing

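The median of the members stayed below that of all genes under every alternative run. It was −0.43 with a pseudocount of 0.1. Without a filter on low values it was −0.040 over 552 genes, most of them with a mean FPKM under 1, whose differences on this scale are small by construction. Leaving out 1 library in turn gave −0.40 to −0.29.

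The number of members called lower, 5 in the report, was 0 without a filter, 3 with a mean FPKM of at least 5 (KLF5, TBC1D4 and TPT1, which is not among the 5), and 1 with rescaled totals, with centred values or with the GC content and length correction. Without genes listed at 0 there were 14, and among protein-coding genes 16. Leaving out 1 library gave 0 to 1, where a lone library is assumed to vary like the others. Replicate numbers 1 and 2 recur in both genotypes, and deviations of same-numbered libraries hardly correlated (Pearson's r = 0.00945 across genes). This value cannot show whether same-numbered libraries share a culture or a batch. With the replicate block 1 gene was past the threshold, and with the replicate block and the GC content and length correction 0. No alternative called a member higher.

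Window medians with a pseudocount of 0.1 were −0.58 (30 to 40 Mb), −0.48 (50 to 60 Mb) and −0.47 (110 to 120 Mb). Without a filter they were −0.042 (20 to 30 Mb), −0.023 (30 to 40 Mb), −0.092 (40 to 50 Mb), −0.17 (50 to 60 Mb), −0.0062 (70 to 80 Mb), 0.00117 (90 to 100 Mb), −0.040 (100 to 110 Mb) and −0.15 (110 to 120 Mb). With a mean FPKM of at least 5 they were −0.57 (40 to 50 Mb) and −0.48 (50 to 60 Mb). The GC content and length correction gave −0.25 (70 to 80 Mb) and −0.24 (90 to 100 Mb), protein-coding genes −0.40 (50 to 60 Mb) and −0.25 (70 to 80 Mb), and means −0.33 (70 to 80 Mb). Leaving out 1 library gave −0.45 to −0.32, −0.50 to −0.32, −0.56 to −0.35, −0.40 to −0.20, −0.24 to −0.18, −0.32 to −0.10, −0.34 to −0.025 and −0.57 to −0.22 in the 8 windows in order. Of 13 windows of 5 Mb with 5 or more members, 13 medians were below all genes, from −0.53 to −0.05, and of 8 windows shifted by 5 Mb, 8. The order of the windows changed with the pseudocount, the filters and the library left out. Apart from the effects of construction named here, the cause was not tested. With 2 libraries per genotype, the number of libraries limits the precision.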
